A study of Mus musculus with 18 samples.

Results

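The rabbit IgG precipitates were the isotype control of an RNA immunoprecipitation of Kif5A, a neuronal kinesin-1 motor, from mouse nerve axoplasm. They were chosen by their labels and made up 6 of the 18 libraries of the study, 3 from sciatic nerve and 3 from dorsal root. The question was how the RNA held by a control antibody differed between the 2 tissues. All animals were C57B6 mice, with no genetic change, treatment, sex or age given in the labels. For each of 3 biological repeats, axoplasm was prepared from the sciatic nerves and the dorsal roots of the same 5 animals, which were pooled. Each library is therefore a pool and holds no spread between single mice. The tissue was ground, the lysate was cleared by centrifugation, and rabbit IgG was recovered on protein G magnetic beads that had been blocked with salmon sperm DNA. The other 12 libraries were 6 precipitates with a rabbit polyclonal antibody to Kif5A and 6 input axoplasm samples. The inputs are used below as the same tissue difference without precipitation.

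An isotype control antibody is meant to bind no protein of the sample, so the RNA it brings down is what sticks to antibody, beads and tube, and it sets the background for the specific antibody. The sciatic nerve is a peripheral nerve of axons and Schwann cells in an endoneurium, bounded by a perineurium and wrapped in an epineurium with fibroblasts, vessels, mast cells and fat. The dorsal root carries the central axons of sensory neurons through the meninges to the spinal cord, where the glia change from Schwann cells to oligodendrocytes and astrocytes. Axoplasm pressed from ground tissue can hold cytoplasmic RNA of all these cells.

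The authors deposited raw counts per transcript in 1 table per tissue. The 6 IgG libraries held 11584418 to 18314126 counts on named genes in dorsal root and 21323159 to 22580824 in sciatic nerve, so every sciatic nerve library was deeper than every dorsal root library. The 16878 named transcripts listed in both tables gave 12697 genes, of which 5.65 to 9.18% had no count in a dorsal root IgG library and 6.73 to 8.88% in a sciatic nerve IgG library. The commonest gene in 4 of the 6 libraries was Fth1, the ferritin heavy chain, with 5.86, 7.84 and 13.6% of the shared counts in dorsal root and 3.44, 3.54 and 7.65% in sciatic nerve. In sciatic nerve replicate 1 the commonest was Cfd, the fat cell protease adipsin, with 4.84%, and in replicate 2 it was the nuclear RNA Malat1, with 4.55%. Across the genes tested, Pearson's r of log2(CPM + 1) was 0.800 to 0.830 within dorsal root, 0.821 to 0.828 within sciatic nerve and 0.704 to 0.799 between tissues, as a description over genes that share libraries. The counts of replicates differed by far more than sampling noise, with a chi-square per degree of freedom of 162 to 487 for the pairs of a tissue.

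Levels are given as CPM, counts per 1000000 named counts of a library, after TMM scaling over the 18 libraries, for replicates 1, 2 and 3 in that order. Differences are log2 values of sciatic nerve over dorsal root from edgeR's quasi-likelihood test on the 6 IgG libraries, and a gene is called where the p adjusted over all genes tested was under 0.05. Of 11443 genes tested, 121 were called (1.06%), 83 of them higher in sciatic nerve (0.725%) and 38 higher in dorsal root (0.332%). All 121 had groups that did not overlap, as did 2483 genes in all (21.7%), and 1393 genes had an unadjusted p under 0.05 (12.2%). The smallest called difference was 1.79 in size on the log2 scale in both directions. Genes with positive and negative differences were about as many over all genes tested, with 5622 above 0 and a median of -0.023, and library sizes without TMM moved this median to -0.14. With the replicate number as a block, 68 genes were called, 63 of them among the 121, and limma-voom called 57. DESeq2 called 878, 439 in each direction, and a fit of the 12 precipitates called 652, 326 in each direction, so the excess of calls in sciatic nerve was not kept by these fits. Without 1 library the count was 57, 51 and 88 for dorsal root replicates 1, 2 and 3 and 64, 64 and 106 for sciatic nerve replicates 1, 2 and 3. Of the 121 genes, 42 were called whichever library was left out, and 27 were called under all 15 alternatives.

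**Figure D1:**
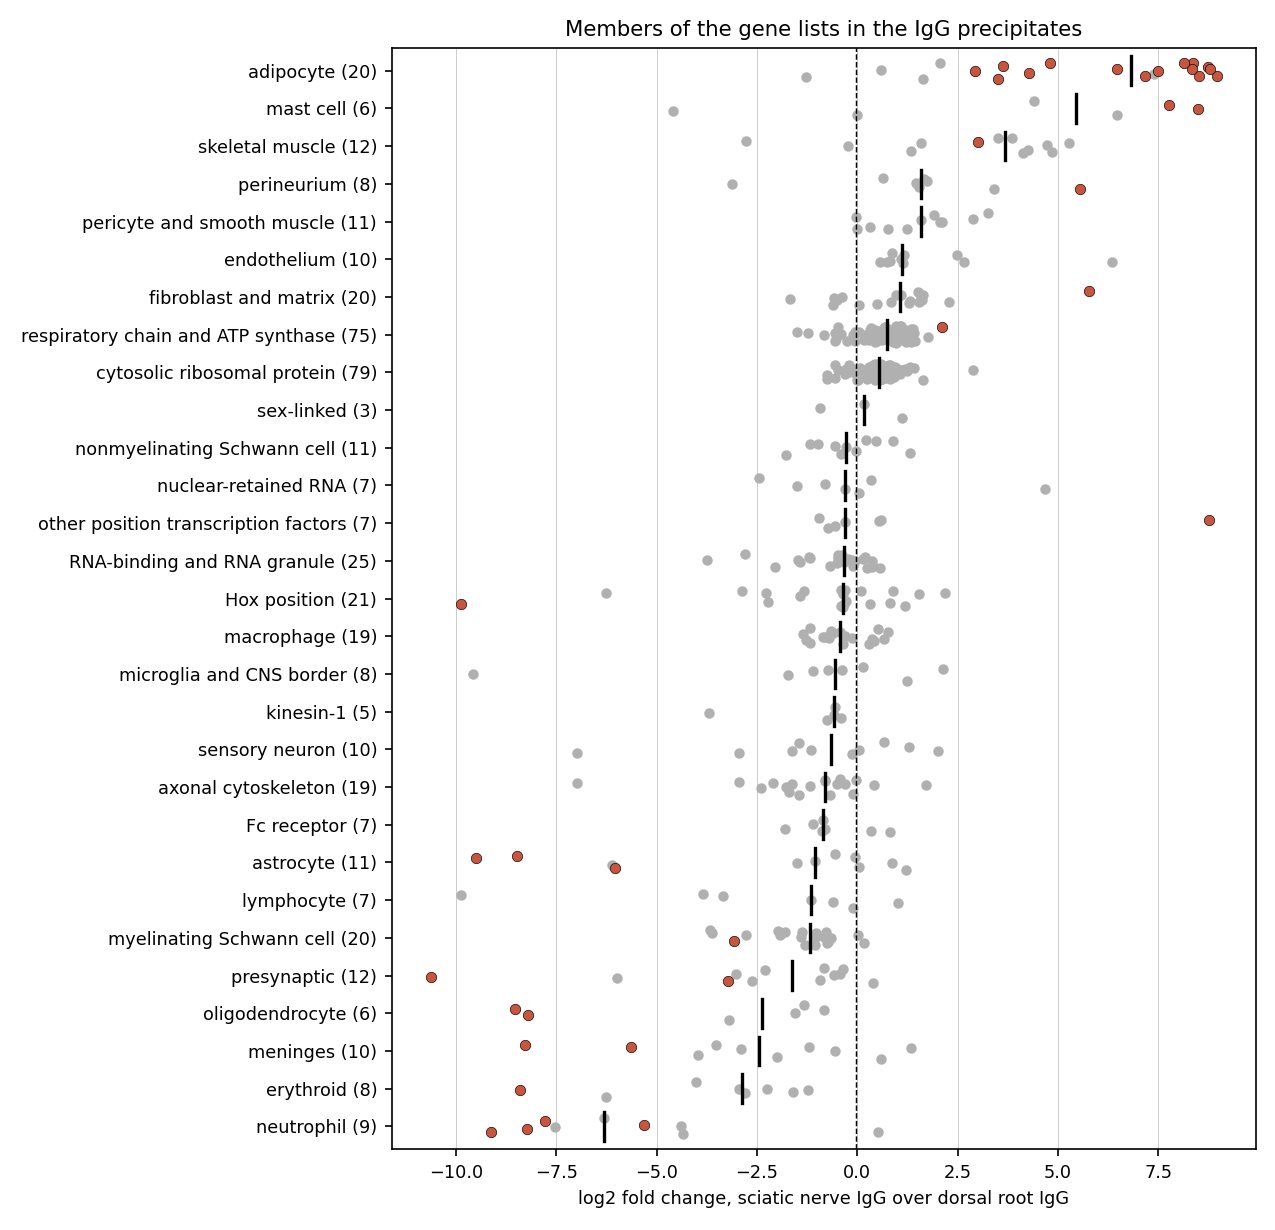
Each point is 1 gene of 1 of the 29 gene lists, with its log2 difference between sciatic nerve IgG and dorsal root IgG on the x axis (3 libraries each). Red points were called, black bars are list medians, the dashed line is the median of all genes tested, and the number of members tested stands after each list name. The adipocyte list lies farthest to the right with a median of 6.82 and the neutrophil list farthest to the left with -6.32.

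Of the 29 lists, that of fat cell genes had the most calls and the highest median toward sciatic nerve. Of 20 adipocyte genes tested, 15 were called higher in sciatic nerve and none was called lower. A positive difference was found in 19 of the 20, and the median log2 difference was 6.82 against -0.023 over all genes. Over all genes tested, 0.725% were called higher in sciatic nerve and 49.1% had a positive difference. The summed level of the list, in counts per 1000000 named counts without TMM, was 134052, 93725 and 46156 in sciatic nerve IgG and 2190.0, 2048 and 1776 in dorsal root IgG. The sums fell into separate ranges, and within sciatic nerve replicate 3 was the lowest and replicate 1 the highest. In the inputs the sum was 23681, 28899.7 and 9589.7 in sciatic nerve and 1619, 1506 and 1793 in dorsal root, so that each sciatic nerve IgG library was above every sciatic nerve input. The Kif5A precipitates of sciatic nerve held 102932, 71939 and 14458. Leaving out 1 library kept 12 to 14 adipocyte calls, and limma-voom called 6. In such bulk samples, more cells of a type and more RNA per cell cannot be told apart as a source of a difference between tissues. Why the sums of sciatic nerve IgG were above those of its inputs was not tested.

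Fabp4, the fatty acid carrier of fat cells and capillary endothelium (chr3:10204088-10208576, minus strand, GRCm38), had 17232, 16307 and 9497 CPM in sciatic nerve IgG and 41.4, 34.1 and 39.4 CPM in dorsal root IgG. All sciatic nerve libraries were far above all dorsal root libraries, and the log2 difference was 8.52 ± 0.41 (SE), adjusted p = 0.000216, the smallest of the named genes. Adipoq, which encodes the fat cell hormone adiponectin (chr16:23146536-23158028, plus strand), had 7405, 3569.5 and 1820.1 CPM in sciatic nerve IgG and 12, 8.91 and 4.3 CPM in dorsal root IgG. The lowest sciatic nerve value of Adipoq was replicate 3, as for the list, and the groups did not overlap (log2 difference 8.95 ± 0.77 (SE), adjusted p = 0.00225). Retn, which encodes the adipokine resistin (chr8:3655770-3660110, plus strand), had 2092, 966 and 862 CPM against 2.81, 6.07 and 2.81 CPM, with no overlap (log2 difference 8.36 ± 0.64 (SE), adjusted p = 0.00135). Scd1, the stearoyl-CoA desaturase that makes monounsaturated fatty acids (chr19:44394455-44407879, minus strand), was well measured in dorsal root too, with 616, 784 and 793 CPM, and reached 16881, 15729 and 10513 CPM in sciatic nerve (log2 difference 4.26 ± 0.32 (SE), adjusted p = 0.00135). Fasn, the fatty acid synthase (chr11:120805846-120824547, minus strand), had 1640.0, 1427 and 1344 CPM in sciatic nerve IgG and 116, 81.2 and 153 CPM in dorsal root IgG (log2 difference 3.63 ± 0.33 (SE), adjusted p = 0.00225). Fabp4, Scd1 and Fasn were among the 27 genes called under every alternative, with Lpl, the lipoprotein lipase, and Plin4, a lipid droplet coat protein. The other called adipocyte genes were Acsl1, Adrb3, Car3, Cfd, Dgat2, Gpd1, Lep and Thrsp, with log2 differences from 2.92 for the glycerol-3-phosphate dehydrogenase Gpd1 to 8.78 for the leptin gene Lep. Dgat2, an enzyme of triglyceride synthesis, lost its call without any 1 library (adjusted p 0.0536 to 0.15), Gpd1 without any except sciatic nerve replicate 2 (0.0584 to 0.125), and Acsl1 without dorsal root replicate 2 (0.0573).

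**Figure D2:**
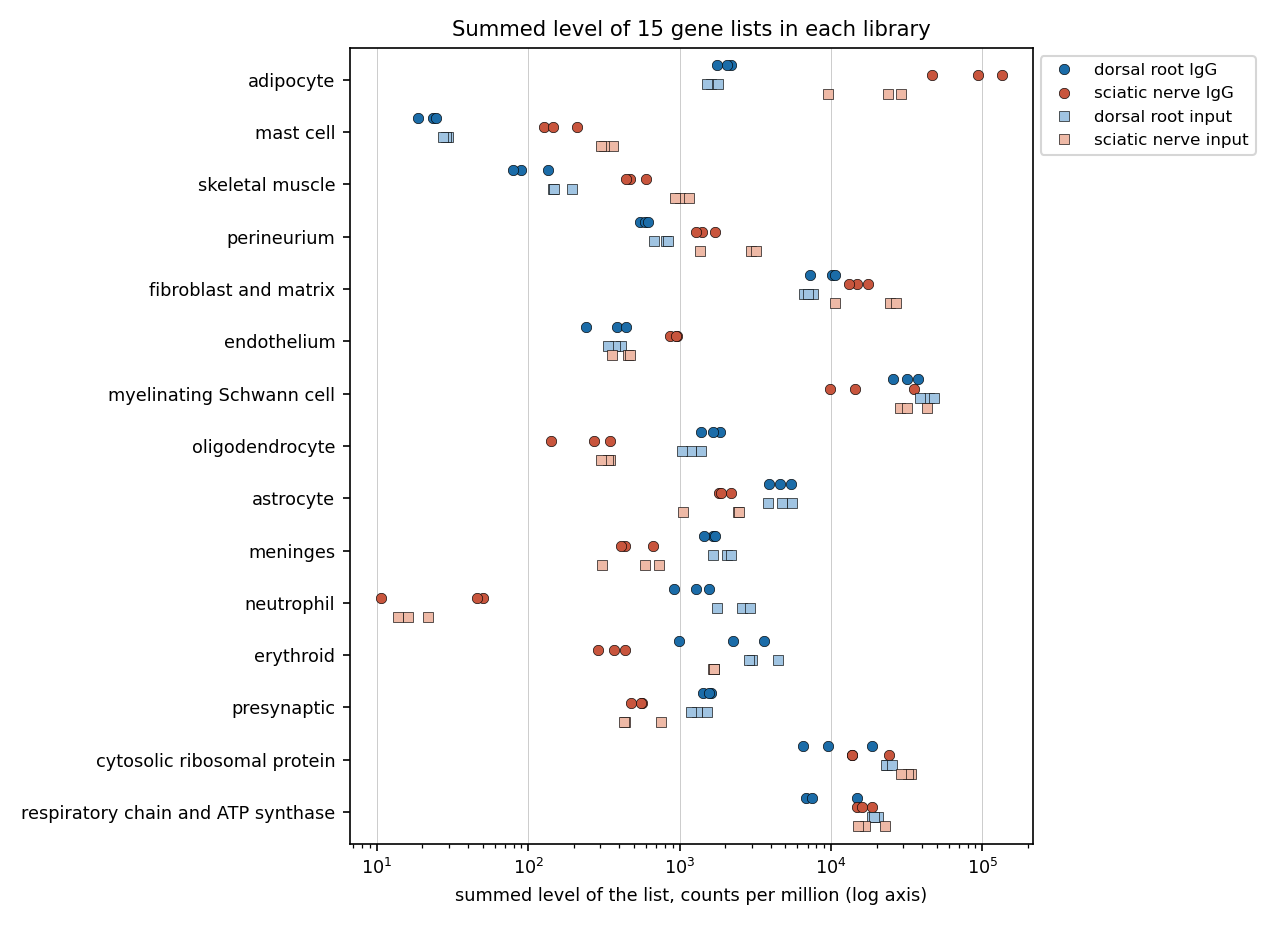
Summed level of 15 gene lists in each of the 12 IgG and input libraries, in counts per 1000000 named counts without TMM, on a log axis; circles are IgG precipitates and squares inputs, 3 libraries per group. The adipocyte sums of sciatic nerve IgG, 46156 to 134052, lie to the right of all other groups, and the neutrophil sums of both sciatic nerve groups to the left of both dorsal root groups.

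Of the 10 genes with the largest called differences toward sciatic nerve, Adipoq had the highest level in dorsal root IgG, as given above. Syt15, a synaptotagmin family protein (chr14:34219595-34230420, plus strand), had no count in the 3 dorsal root IgG libraries and 50.2, 50.6 and 7.81 CPM in sciatic nerve IgG, at least 538-fold higher taken against 3 counts over the dorsal root group (adjusted p = 0.0461). Dab2ip, a Ras GTPase-activating protein (chr2:35558266-35730994, plus strand), had no count on the shared transcripts in dorsal root and 17.5, 28.8 and 24.2 CPM in sciatic nerve, at least 356-fold higher on the same floor (adjusted p = 0.0408). Its other transcripts held 37 counts in dorsal root IgG, and over all transcripts of each table its log2 difference was 4.73 with an adjusted p of 0.254. Cyp2f2, a cytochrome P450 (chr7:27119909-27133660, plus strand), had 0.0668, 0.0768 and 0 CPM in dorsal root and 42.4, 88.3 and 86.3 CPM in sciatic nerve, a ratio of 1650.0 with a 95% counting interval of 456 to 13628 (adjusted p = 0.00344). That interval rests on 2 dorsal root counts and covers counting error only, not the spread between libraries. Hcar2, the receptor for nicotinic acid on fat cells and myeloid cells, also rested on 2 dorsal root counts, with 47.9, 43.1 and 5.27 CPM in sciatic nerve and a ratio of 714 (197 to 5900.4; adjusted p = 0.0451). Nnmt, the nicotinamide N-methyltransferase of fat and liver (chr9:48591877-48605153, minus strand), had 0, 0.23 and 0.115 CPM in dorsal root and 206, 67.3 and 30.5 CPM in sciatic nerve (log2 difference 9.70 ± 1.30 (SE), adjusted p = 0.013). Col6a5, a chain of collagen VI (chr9:105856078-105960643, minus strand), had 0.0668, 0.307 and 0.172 CPM against 59.7, 222 and 73.2 CPM (log2 difference 9.27 ± 0.97 (SE), adjusted p = 0.00374). Serpina3c, a serine protease inhibitor (chr12:104146382-104153870, minus strand), had 1, 0.307 and 0.23 CPM against 565, 191 and 147 CPM (log2 difference 9.15 ± 0.93 (SE), adjusted p = 0.00334), and it belongs to a cluster of near-identical genes between which the counting could split reads. Pon1, the paraoxonase carried by high-density lipoprotein (chr6:5168090-5193946, minus strand), had 1.2, 0.154 and 0.287 CPM against 383, 288 and 203 CPM (log2 difference 8.999 ± 0.85 (SE), adjusted p = 0.00279). Cox8b, a cytochrome c oxidase subunit of muscle and brown fat, is described with the input comparison, and Adipoq was the tenth gene. In the inputs, all of these genes but Syt15 and Dab2ip were called in the same direction. There, Syt15 and Dab2ip had log2 differences of 2.02 and 1.19 with adjusted p-values of 0.189 and 0.642.

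Some of these calls were lost when 1 library was left out or with the replicate block. Leaving out 1 library leaves fewer libraries to test with, and it cost 38 to 72 of the IgG calls over all genes. A lost call therefore does not show by itself that the call rested on that library. The log2 difference of Dab2ip stayed at 11.52 to 11.85 whichever library was left out. With no dorsal root count on the shared transcripts this value could hardly move, so its steadiness says nothing about the call. Dab2ip lost its call without any 1 of the 6 libraries (adjusted p 0.0829 to 0.143), Syt15 and Hcar2 without any 1 except sciatic nerve replicate 3 (0.0979 to 0.167 and 0.105 to 0.17), and Nnmt without dorsal root replicate 1, 2 or 3 or sciatic nerve replicate 1 (0.056 to 0.0844). With the replicate block the adjusted p was 0.14 for Syt15, 0.181 for Dab2ip, 0.0631 for Nnmt and 0.0646 for Hcar2. Cyp2f2, Pon1 and Cox8b were called under all 15 alternatives.

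**Figure D3:**
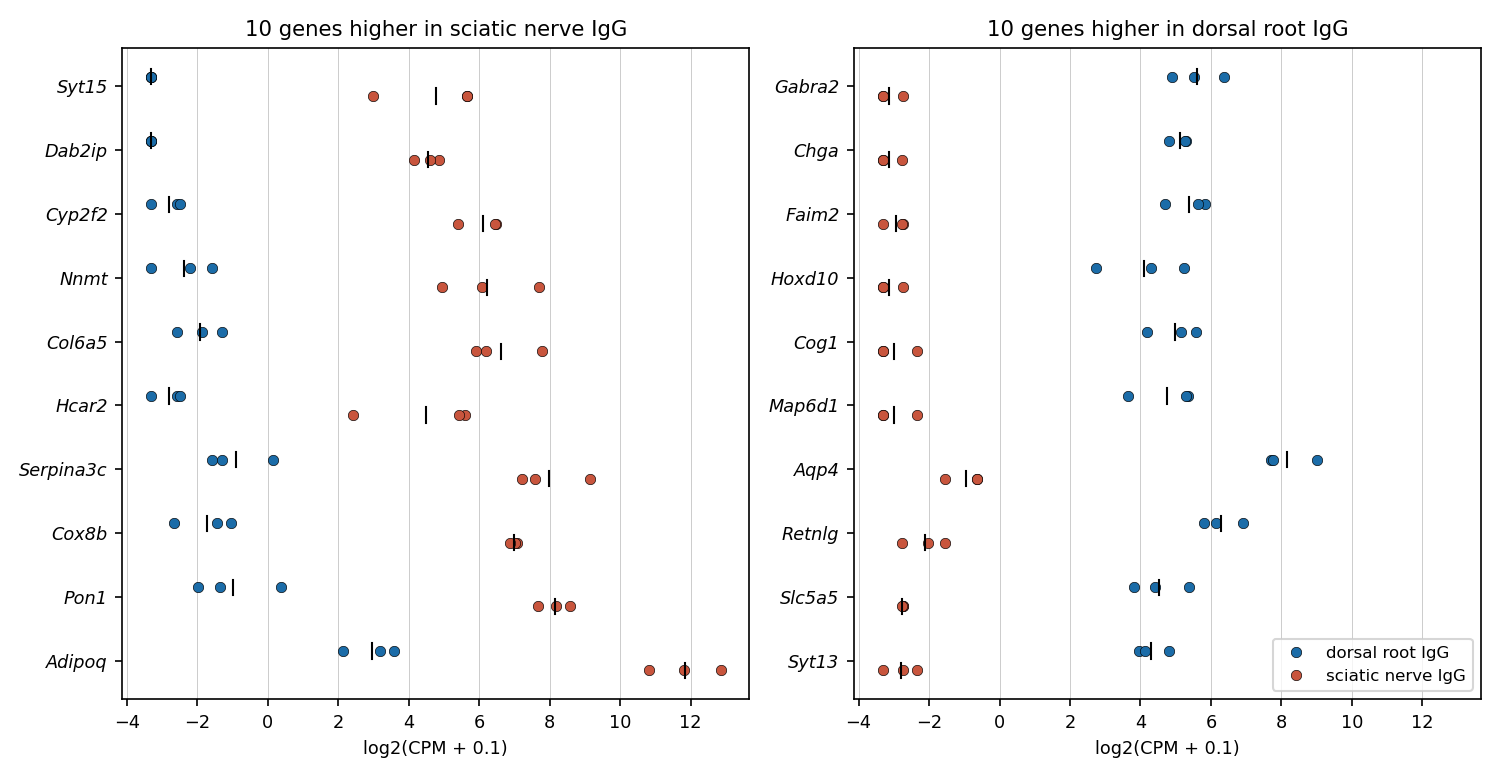
Level of the 10 genes with the largest called difference in each direction, in each of the 6 IgG libraries, on the log2(CPM + 0.1) scale; points are libraries and black bars are means of the 3 log values. No gene has overlapping groups, which was required for a gene to be shown here, and a point near -3.3 is a library with no count.

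The lists of mast cells, skeletal muscle, perineurium, fibroblasts, endothelium and smooth muscle had positive medians with 0 to 2 calls each. Over all genes tested, 0.725% were called higher in sciatic nerve and 49.1% had a positive difference. Of 6 mast cell genes tested, 5 had a positive difference (median 5.44) and 2 were called. Mcpt4, a mast cell chymase (chr14:56059629-56062313, minus strand), had 12.7, 66.8 and 57.8 CPM in sciatic nerve IgG and 0.0668, 0.307 and 0.23 CPM in dorsal root IgG (log2 difference 7.76 ± 1.18 (SE), adjusted p = 0.0241), and sciatic nerve replicate 1 was the lowest of its group. Cpa3, the mast cell carboxypeptidase, had 35.8, 35.8 and 7.22 CPM against 0, 0.0768 and 0.115 CPM, where 3 dorsal root counts give a ratio of 391 with a 95% counting interval of 134 to 1898 (adjusted p = 0.0489). Of 12 skeletal muscle genes, 10 were positive (median 3.68), and the skeletal muscle actin Acta1 (chr8:123891769-123894751, minus strand) was the 1 called, with 250.3, 248 and 165 CPM in sciatic nerve and 28.3, 20.6 and 32.2 CPM in dorsal root (log2 difference 3.00 ± 0.39 (SE), adjusted p = 0.00927). Of 8 perineurium genes, 7 were positive (median 1.59). Msln, which encodes the surface protein mesothelin (chr17:25748613-25754378, minus strand), was called, with 239.9, 200.5 and 108 CPM against 0.935, 6.14 and 4.3 CPM (log2 difference 5.55 ± 0.79 (SE), adjusted p = 0.0178). Of 20 fibroblast and matrix genes, 15 were positive (median 1.07). Dpt, the matrix protein dermatopontin (chr1:164796644-164824266, plus strand), was called, with 1056, 352 and 518 CPM against 2.81, 4.53 and 27.8 CPM (log2 difference 5.76 ± 1.00 (SE), adjusted p = 0.0445). Dorsal root replicate 3 held the highest Dpt level of its group, still far under the lowest of sciatic nerve. All 10 endothelial genes were positive (median 1.12) with none called, and Plvap, a protein of fenestrated capillaries, had 371, 183 and 85 CPM against 0.668, 0.23 and 6.77 CPM (adjusted p = 0.071). Of 11 pericyte and smooth muscle genes, 9 were positive (median 1.57) with none called, and the smooth muscle genes Tagln and Myl9 had log2 differences of -0.04 and -0.014, whose sign changed between alternatives. Tbx15, a transcription factor of limb and body wall mesenchyme and the 1 called gene of 7 position factors tested besides Hox genes, had 51.5, 63.1 and 62.6 CPM in sciatic nerve and 0.0668, 0.0768 and 0.23 CPM in dorsal root (log2 difference 8.76 ± 0.93 (SE), adjusted p = 0.00349).

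Among these genes only Tbx15 was called under all 15 alternatives. Cpa3 lost its call without any 1 library (adjusted p 0.0541 to 0.185), Mcpt4 without any except sciatic nerve replicate 1 (0.0801 to 0.103), and Dpt without any except dorsal root replicate 3 (0.0816 to 0.17). Msln lost it without dorsal root replicate 2 or 3 or sciatic nerve replicate 1 or 2 (0.0573 to 0.0879), and Acta1 without replicate 1 or 2 of either tissue (0.0532 to 0.0619). With the replicate block the adjusted p was 0.172 for Cpa3, 0.0709 for Dpt, 0.0698 for Msln and 0.0591 for Acta1.

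The 10 genes with the largest called differences toward dorsal root included Aqp4 and Retnlg, given below with their lists, and the following 8. Gabra2, a GABA-A receptor subunit of neurons (chr5:70957597-71095849, minus strand), had 83.3, 45.7 and 29.7 CPM in dorsal root IgG and 1 count in the 3 sciatic nerve IgG libraries together, a ratio of 3276 with a 95% counting interval of 587 to 129430.0 (adjusted p = 0.00694). Chga, the chromogranin A of dense-core vesicles (chr12:102554969-102565028, plus strand), had 28, 39 and 38.2 CPM against 1 count, a ratio of 2210.5 (396 to 87365; adjusted p = 0.00991). Faim2, an inhibitor of Fas-triggered death in neurons (chr15:99497012-99528165, minus strand), had 56.6, 25.9 and 49.7 CPM against 2 counts, a ratio of 1424 (394 to 11766; adjusted p = 0.00694). These 3 genes were present in every dorsal root library, and in sciatic nerve each was at 0 in at least 1 library. Hoxd10, a Hox gene of the lumbar segments and the 1 called of 21 Hox genes, had 6.61, 37.2 and 19.6 CPM against 1 count (adjusted p = 0.0461), with dorsal root replicate 1 the lowest of its group. The share called in this direction over all genes tested was 0.332%. Map6d1, a microtubule-associated protein, had 12.4, 40.3 and 38.7 CPM against 2 counts (adjusted p = 0.0418). Syt13, a synaptotagmin, had 28.1, 15.4 and 17.5 CPM against 3 counts (adjusted p = 0.0461). Slc5a5, which encodes the sodium-iodide symporter, had 41.3, 14 and 21 CPM against 3 counts (adjusted p = 0.0154). Cog1, a subunit of a Golgi tethering complex (chr11:113649169-113667054, plus strand), had 48, 18 and 35.3 CPM against 2 counts (adjusted p = 0.0308), and its exons overlap those of Fam104a on the other strand. Exons of Dab2ip, Cyp2f2 and Map6d1 also overlap those of another gene on the other strand. The deposited labels do not say whether reads were counted by strand, so reads of such overlapping genes cannot be told apart. Over the 121 calls, 9 genes higher in dorsal root and 6 higher in sciatic nerve had 3 counts or fewer in the lower group.

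Of these dorsal root genes, Faim2 alone was called under all 15 alternatives. Hoxd10, Cog1, Map6d1 and Syt13 lost their calls without any 1 library (adjusted p 0.0808 to 0.185, 0.0511 to 0.144, 0.0693 to 0.17 and 0.0811 to 0.167), and Slc5a5 without any except dorsal root replicates 2 and 3 (0.0581 to 0.0882). Gabra2 lost it without dorsal root replicate 1 (0.0544) and Chga without dorsal root replicate 2 or 3 (0.0549 to 0.0619). With the replicate block the adjusted p was 0.0625 for Chga, 0.167 for Hoxd10, 0.121 for Cog1, 0.0904 for Map6d1, 0.0776 for Slc5a5 and 0.14 for Syt13.

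Defining genes of central glia and of the meninges were called toward dorsal root. Over all genes tested, 0.332% were called in this direction and 49.1% had a positive difference. Of 11 astrocyte genes tested, 3 were called lower in sciatic nerve, and 3 of the 11 had a positive difference (median -1.06). Gfap, the astrocyte intermediate filament (chr11:102887336-102900912, minus strand), had 718, 819.7 and 457 CPM in dorsal root IgG and 0.729, 0.879 and 4.04 CPM in sciatic nerve IgG (log2 difference -8.48 ± 0.86 (SE), adjusted p = 0.00334). Its highest sciatic nerve library was replicate 3, still far under every dorsal root library. Aqp4, the water channel of astrocyte endfeet, had 209, 521 and 219 CPM against 0.243, 0.537 and 0.545 CPM (log2 difference -9.50 ± 0.70 (SE), adjusted p = 0.00135). Slc1a2, the main glutamate transporter of astrocytes, had 199, 410.1 and 359 CPM against 0.584, 5.42 and 8.85 CPM (log2 difference -6.05 ± 0.95 (SE), adjusted p = 0.0291). All 6 oligodendrocyte genes tested had negative differences (median -2.38), and 2 were called. Mobp, a protein of central myelin (chr9:120149707-120181484, plus strand), had 703, 1072 and 1004 CPM against 0.729, 1.22 and 7.58 CPM (log2 difference -8.20 ± 1.03 (SE), adjusted p = 0.00898). Gpr37, a receptor of myelinating oligodendrocytes, had 29.1, 41.2 and 5.28 CPM against 0.0486, 0.0977 and 0.0454 CPM (log2 difference -8.52 ± 1.42 (SE), adjusted p = 0.0369). Of 10 meningeal genes, 8 had negative differences (median -2.45), and 2 were called. Ptgds, the prostaglandin D synthase of arachnoid and choroid plexus (chr2:25466709-25470046, minus strand), had 489.9, 295 and 228 CPM against 0.681, 0.879 and 1.73 CPM (log2 difference -8.28 ± 0.63 (SE), adjusted p = 0.00135). Aldh1a2, a retinoic acid-making enzyme of the meninges (chr9:71215789-71296243, plus strand), had 169.8, 177 and 338 CPM against 2.48, 1.95 and 9.49 CPM (log2 difference -5.63 ± 0.78 (SE), adjusted p = 0.0157). None of the 8 genes of microglia and central border cells was called. Gfap, Mobp and Ptgds were called under all 15 alternatives. Slc1a2 lost its call without any library except sciatic nerve replicate 1 (adjusted p 0.0552 to 0.14), Gpr37 without any except dorsal root replicate 3 (0.113 to 0.17; 0.104 with the replicate block), and Aldh1a2 without any except sciatic nerve replicate 3 (0.0532 to 0.0753).

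Genes of neutrophils and red cells were also called toward dorsal root, where 0.332% of all genes tested were called and 49.1% had a positive difference. Of 9 neutrophil genes tested, 4 were called lower in sciatic nerve, and 8 of the 9 had a negative difference (median -6.32). The summed level of the list was 916, 1572 and 1285 CPM without TMM in dorsal root IgG and 49.9, 45.7 and 10.6 in sciatic nerve IgG. Ngp, a neutrophil granule protein (chr9:110419747-110423012, plus strand), had 355, 622 and 498 CPM against 0.681, 4.98 and 1.23 CPM (log2 difference -7.78 ± 0.87 (SE), adjusted p = 0.0056). Retnlg, a resistin-like protein of neutrophils, had 70.8, 121 and 55.9 CPM against 0.243, 0.147 and 0.0454 CPM (log2 difference -9.13 ± 0.93 (SE), adjusted p = 0.00334). Mmp9, a gelatinase stored in neutrophil granules (chr2:164940780-164955850, plus strand), had 56.3, 91.7 and 41.7 CPM against 0.0973, 0.44 and 0.0908 CPM (log2 difference -8.24 ± 1.04 (SE), adjusted p = 0.00898), and without dorsal root replicate 2 its adjusted p was 0.0619. Of this list, limma-voom called 1 gene, 2 were called without dorsal root replicate 2 and 6 without sciatic nerve replicate 3. The fourth called gene was S100a9, a calcium-binding protein of neutrophils, with a log2 difference of -5.31 (adjusted p = 0.0489), and it lost the call without any library except sciatic nerve replicate 3 (0.127 to 0.173). All 8 erythroid genes had negative differences (median -2.88). Slc4a1, the anion exchanger of red cells (chr11:102348824-102366203, minus strand), was the 1 called, with 47.2, 74.2 and 77.3 CPM against 0.195, 0.293 and 0.0908 CPM (log2 difference -8.41 ± 0.87 (SE), adjusted p = 0.00334). In the inputs, 5 of 8 erythroid and 6 of 9 neutrophil genes were called in the same direction, against 1.78% of all genes tested there. No macrophage (19 tested), Fc receptor (7) or lymphocyte (7) gene was called. Fcgrt, the neonatal Fc receptor, which binds IgG, had 367, 311 and 295 CPM in dorsal root and 816, 412 and 528 CPM in sciatic nerve (log2 difference 0.82 ± 0.33 (SE), adjusted p = 0.369). Fcer1g, the shared signalling chain of Fc receptors, had 225, 356 and 462 CPM and 214, 198 and 169.7 CPM (log2 difference -0.87 ± 0.34 (SE), adjusted p = 0.355). Lyz2, the macrophage lysozyme, had 1422, 2213 and 2526 CPM in dorsal root and 1111, 1136 and 1323 CPM in sciatic nerve, and an adjusted p of 0.305, and C1qb had overlapping groups.

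Neuronal and Schwann cell genes gave few calls. Over all genes tested, 0.332% were called toward dorsal root and 49.1% had a positive difference. Of 12 presynaptic genes tested, 11 had a negative difference (median -1.62), and Snap25 and Chga were called. Snap25, a SNARE protein of synaptic vesicle release (chr2:136713453-136782428, plus strand), had 558, 749 and 701 CPM in dorsal root and 77.1, 70.8 and 72.3 CPM in sciatic nerve (log2 difference -3.22 ± 0.29 (SE), adjusted p = 0.00225), with libraries of a tissue close together, and it was called under all 15 alternatives. None of 10 sensory neuron, 19 axonal cytoskeleton or 5 kinesin-1 genes was called. Kif5a, the gene of the motor that the specific antibody was raised against (chr10:127225696-127263348, minus strand), had 67.3, 19.7 and 139 CPM in dorsal root IgG and 4.77, 6.55 and 6.4 CPM in sciatic nerve IgG, without overlap (log2 difference -3.69 ± 0.81 (SE), adjusted p = 0.0819). Sncg, the gamma-synuclein of sensory axons, had 917, 872 and 1958 CPM and 1308, 882 and 1708 CPM (adjusted p = 0.985). Kif5b, the ubiquitous kinesin-1 heavy chain, had 632, 596 and 839.9 CPM and 468, 414 and 552 CPM (adjusted p = 0.495). Of 20 genes of myelinating Schwann cells, 18 had a negative difference (median -1.18) and 1 was called. Mag, an adhesion protein of the inner myelin wrap in both Schwann cells and oligodendrocytes (chr7:30899176-30914873, minus strand), had 1279.8, 789.6 and 385 CPM against 73.8, 146 and 78.5 CPM (log2 difference -3.08 ± 0.52 (SE), adjusted p = 0.0408), and it lost the call without any library except dorsal root replicate 3 (adjusted p 0.0867 to 0.164) and with the replicate block (0.0754). The summed Schwann cell list was 9886, 14319 and 35429 CPM without TMM in sciatic nerve IgG, so that replicate 3, which had the least adipocyte RNA, had the most Schwann cell RNA and overlapped the 31613, 25509 and 37540.1 of dorsal root. None of 11 genes of nonmyelinating Schwann cells was called.

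Genes of the protein-making and respiratory machinery had mostly positive differences in IgG, with 1 call. For comparison, 49.1% of the 11443 genes tested in IgG were positive (median -0.023). Of these, 11154 were also tested in input, where 54.8% were positive (median 0.059). Of 79 cytosolic ribosomal protein genes, 67 had a positive difference (median 0.53) and none was called, and in input 59 of the 79 were positive (median 0.20). Their summed level was 6570.5, 9604 and 18685 CPM without TMM in dorsal root IgG and 13713, 13749 and 24333 in sciatic nerve IgG, with dorsal root replicate 3 above 2 of the 3 sciatic nerve libraries. Of 75 genes of the respiratory chain and ATP synthase, 63 had a positive difference in IgG (median 0.73), against 18 of 75 in input (median -0.12). The IgG sums were 6882, 7531 and 14845 CPM without TMM in dorsal root and 18721, 14772 and 16062 in sciatic nerve, where dorsal root replicate 3 overlapped the sciatic nerve group. Ndufc2, a complex I subunit (chr7:97400003-97407802, plus strand), was the 1 called, with 46.2, 65.2 and 96.7 CPM in dorsal root and 317, 354 and 249 CPM in sciatic nerve (log2 difference 2.12 ± 0.38 (SE), adjusted p = 0.0461), and it lost the call without any 1 library (adjusted p 0.0549 to 0.185) and with the replicate block (0.122). Both list medians kept their sign under the 15 alternatives, at 0.24 to 1.03 for the ribosomal and 0.56 to 1.23 for the respiratory genes. None of 7 nuclear-retained RNAs, 25 RNA-binding and granule genes or 3 sex-linked genes was called. Malat1, a nuclear long noncoding RNA, had 31096, 27741 and 30018 CPM in dorsal root and 22959, 47141 and 22907 CPM in sciatic nerve, with a log2 difference of 0.032 and an adjusted p of 0.986. Ybx1, an mRNA-binding protein of granules, had 1693, 1957 and 1192 CPM in dorsal root and 642, 571 and 623 CPM in sciatic nerve, without overlap (log2 difference -1.43 ± 0.29 (SE), adjusted p = 0.0707).

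Some genes were listed in the table of 1 tissue alone and could not be tested between tissues. The sciatic nerve table listed 773 such genes, 65 of them with a mean of at least 10 CPM in IgG, and they held 0.256 to 0.348% of the IgG counts. The dorsal root table listed 1997, 147 of them with at least 10 CPM, and they held 0.45 to 0.723%. No source used here says what the authors required for a transcript to be listed. The smallest sum over the 9 libraries of a table was 17 in both. Levels in this paragraph are CPM without TMM. The highest named genes of the sciatic nerve table were Apol6, an apolipoprotein L (185, 202 and 330.5 CPM in the 3 IgG libraries), Ces1f, a carboxylesterase (206, 63.4 and 93.5 CPM), Ctcflos (52, 143 and 79.5 CPM), Cd209g, a lectin (97, 75.8 and 74.4 CPM), and Rbp7, a retinol-binding protein of fat (66.4, 87.4 and 82.7 CPM). Further down came the adipocyte list genes, with the lipid droplet protein Cidec at 71.7, 63.9 and 30.4 CPM, the gluconeogenic enzyme Pck1 at 26.7, 57.2 and 25.6 CPM, the perilipin Plin1 at 15.3, 26.8 and 16.2 CPM, the fat cell transcription factor Pparg at 21.9, 18.6 and 8.33 CPM and the lipase Lipe at 8.31, 10.3 and 10.3 CPM. The highest of the dorsal root table were Ermn and Mog, both of oligodendrocyte myelin (161, 107 and 118 and 78.1, 86.6 and 85.7 CPM), Ltf, the lactoferrin of neutrophil granules (109.9, 163 and 82.8 CPM), Chil3, a chitinase-like protein of myeloid cells (49.5, 115 and 127 CPM), and Ranbp3l (97, 127 and 52.6 CPM). Next came Zic1, a transcription factor of dorsal spinal cord and meninges (84.7, 73.8 and 89.3 CPM), the neuronal filament gene Ina (82.9, 69.1 and 69.3 CPM) and Igfbp2 (56.4, 68.3 and 42.8 CPM).

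The tissue difference of the IgG precipitates was then set beside that of the input axoplasm, which comes from the same preparations but other libraries. In the 6 inputs, 503 of 12215 genes were called (4.12%), 285 higher in sciatic nerve (2.33%) and 218 higher in dorsal root (1.78%). Of the 121 genes called in IgG, 89 were also called in input, all 89 in the same direction, which is 73.6% of the IgG calls and 17.7% of the input calls. In all, 117 of the 121 had the same sign in input, against 62.3% of the 11154 genes tested in both, and the exceptions were Cog1, Ndufc2, Nnat and Sdc3. Across those 11154 genes Pearson's r of the log2 differences was 0.528 and Spearman's rho 0.388, as a description over genes, which are not independent replicates. The called genes differed more in IgG than in input, with a larger size in 113 of 121 and a median of 6.17 against 3.02, but these genes were chosen by their IgG value. Over all genes tested in both, the SD of the log2 differences was 1.77 in IgG and 0.902 in input, and the median SE was 0.936 and 0.408, so both the differences and their errors were wider in IgG. Adipocyte genes had a median of 6.82 in IgG and 3.50 in input, neutrophil genes -6.32 and -7.81, oligodendrocyte genes -2.38 and -2.47, and meningeal genes -2.45 and -1.80. Over all genes the medians were -0.023 and 0.059.

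**Figure D4:**
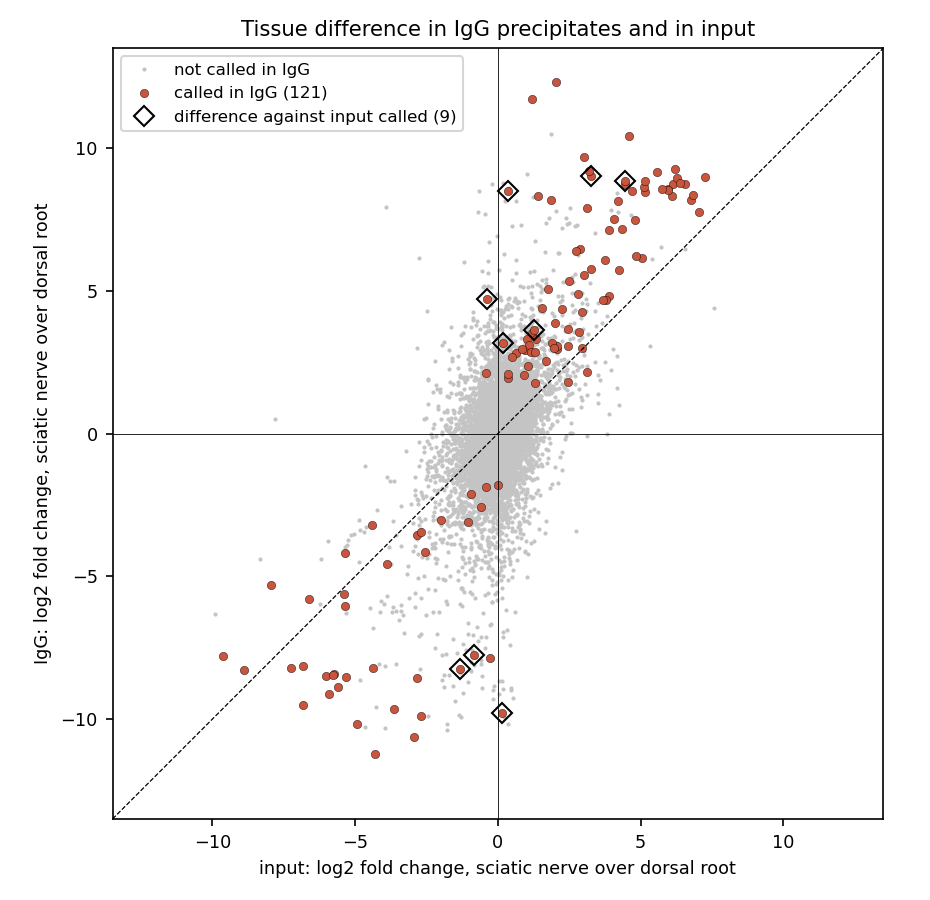
Log2 difference between sciatic nerve and dorsal root in input (x axis, 6 libraries) and in IgG precipitates (y axis, 6 libraries) for 11154 genes; red points were called in IgG, diamonds mark the 9 genes whose 2 differences were called different, and the dashed line is equality. In 117 of 121 red points both values have the same sign.

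A test of the IgG difference minus the input difference over the 12 libraries called 9 of 12612 genes (0.0714%), 6 with a positive value (0.0476%) and 3 with a negative value (0.0238%). An unadjusted p under 0.05 was reached by 1221 genes (9.68%). The call was fragile: leaving out any 1 of the 6 inputs gave 0 calls, the replicate block gave 0, and limma-voom called Cog1 alone, while DESeq2 called 387. Without sciatic nerve IgG replicates 1, 2 and 3 the count was 18, 27 and 71, and without dorsal root IgG replicates 1, 2 and 3 it was 13, 5 and 123. Fasn is the gene best measured in all 4 groups, with 363, 476 and 431 CPM in sciatic nerve input and 165, 154 and 211 CPM in dorsal root input beside the 1640.0, 1427 and 1344 and 116, 81.2 and 153 CPM of the IgG libraries. The Fasn difference was thus 3.63 in IgG and 1.28 in input, and the difference between them was 2.37 ± 0.38 (SE, adjusted p = 0.039). Tusc5, a fat cell membrane protein that aids glucose transporter traffic, had 216, 182 and 294 CPM in sciatic nerve IgG, 0.267, 0.384 and 0.804 CPM in dorsal root IgG, 51.3, 49.8 and 31.1 CPM in sciatic nerve input and 1.12, 2.26 and 2.72 CPM in dorsal root input. Its tissue difference was positive in both, at 8.83 and 4.45, and the excess in IgG was 4.39 ± 0.66 (SE, adjusted p = 0.0309). Cox8b had 134, 129.9 and 116 CPM in sciatic nerve IgG, 0.267, 0.384 and 0.0574 CPM in dorsal root IgG, 40.1, 34.6 and 25.1 CPM in sciatic nerve input and 2.96, 4.46 and 3.12 CPM in dorsal root input, an excess of 5.79 ± 0.74 (SE, adjusted p = 0.028). For these 3 genes sciatic nerve IgG was above and dorsal root IgG below the input of the same tissue in every library. Dnajc15, a chaperone of the mitochondrial inner membrane (chr14:77820681-77875125, minus strand), was alike in the inputs, with 135, 142 and 119 CPM in sciatic nerve and 131, 146 and 76.4 CPM in dorsal root, and had 367, 312 and 218 and 23.4, 31 and 43.3 CPM in IgG (excess 3.01 ± 0.48, adjusted p = 0.039). Nnat, the imprinted proteolipid neuronatin (chr2:157560078-157562522, plus strand), had 7.46, 9.31 and 2.9 and 8.04, 10.3 and 7.23 CPM in the inputs and 172, 217 and 487 and 9.29, 15.7 and 7.52 CPM in sciatic nerve and dorsal root IgG (excess 5.10 ± 0.75, adjusted p = 0.029). For Nnat, sciatic nerve IgG alone stood apart from the other 3 groups. Myct1, an endothelial gene (chr10:5593775-5606904, plus strand), had 18.5, 103 and 31.5 CPM there, 0.134, 0.0768 and 0.172 CPM in dorsal root IgG and 10.4, 6.55 and 4.21 and 6.53, 7.66 and 2.45 CPM in the inputs (excess 8.16 ± 1.20, adjusted p = 0.029). Toward dorsal root, Mmp9 had 12.3, 16.2 and 19.8 CPM in dorsal root input and 4.38, 6.81 and 7.85 CPM in sciatic nerve input. Its log2 difference in input was -1.32 and not called (adjusted p = 0.0999). The IgG difference of -8.24 exceeded that of input by -6.90 ± 0.96 (SE, adjusted p = 0.028). Cog1 had 3.74, 6.15 and 6.03 CPM in dorsal root input and 4.69, 4.92 and 7.56 CPM in sciatic nerve input, no tissue difference past the threshold there (adjusted p = 0.949), and a value of -9.89 ± 1.37 for IgG minus input (adjusted p = 0.028). The ninth gene, 1700007L15Rik, is named outside the rule for named genes because it was one of 9, with -6.87 ± 1.02 (adjusted p = 0.029). Gabra2, Brf2 and Dbil5 came next toward dorsal root with adjusted p-values of 0.0577, 0.0577 and 0.0625 and were not called. In this test the adipocyte list had 19 of 21 positive values (median 2.32, 1 called) and the respiratory list 66 of 75 (median 0.86, none called). The endothelial list had 9 of 10 positive values (median 1.26, none called) and the erythroid list 1 of 8 (median -1.36, none called). The neutrophil list had 5 of 9 positive values (median 1.85), against the direction of Mmp9, its 1 called gene. Over the 11440 genes tested both here and between the IgG precipitates, 47.9% of values were positive and the median was -0.054.

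**Figure D5:**
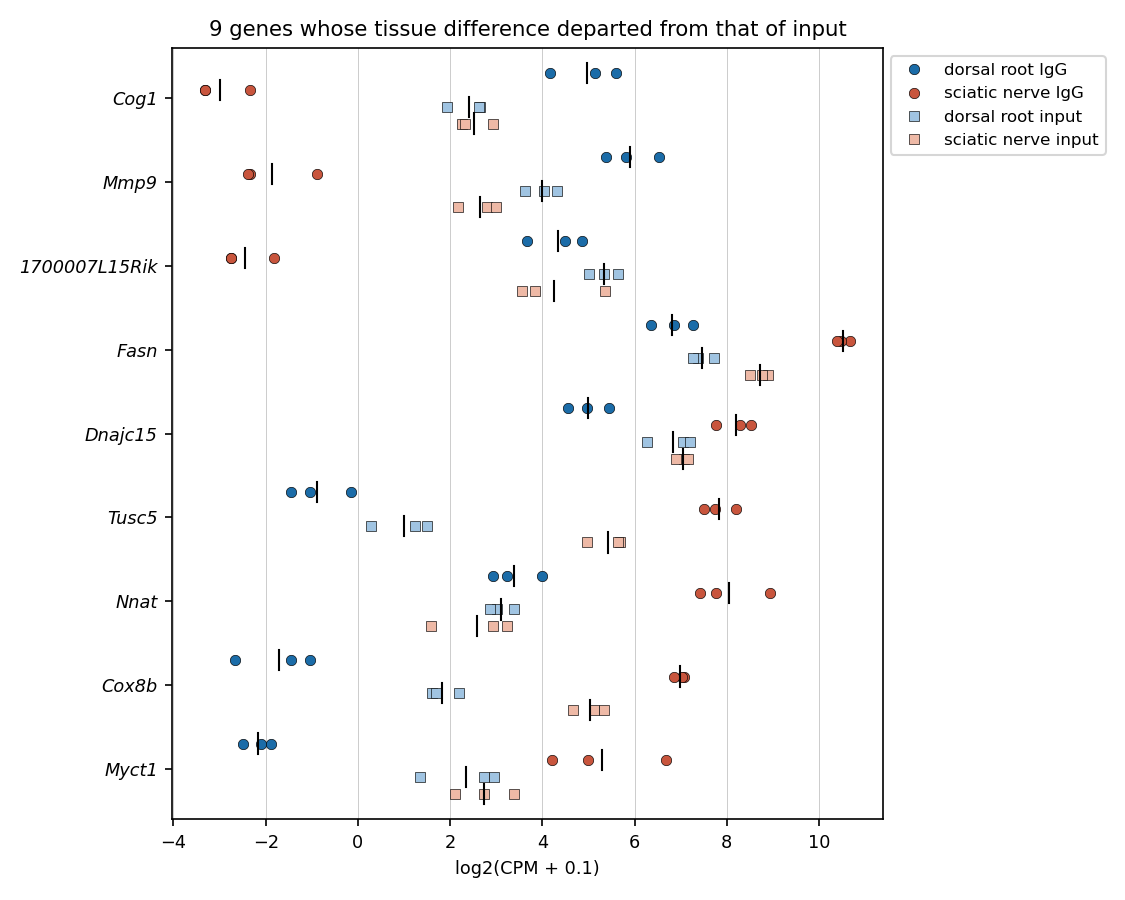
Level of the 9 genes in each of the 12 IgG and input libraries, on the log2(CPM + 0.1) scale; circles are IgG and squares input, blue is dorsal root and red sciatic nerve, and black bars are means of the 3 log values. In all 9 genes the 2 IgG groups lie farther apart than the 2 input groups, which their choice by the difference between IgG and input favours.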

How the data were processed

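RNA was sequenced from 18 libraries of mouse nerve axoplasm, of which the 6 IgG precipitates and the 6 inputs enter the tests. The deposited values are raw counts per Ensembl transcript, in 1 table per tissue, with no normalization of the counts by the authors. Per the submitters' processing notes, CASAVA 1.8.2 and edgeR were used, with the builds mm10 and GRCm38. No source used here names the aligner or the counter. The SMART-Seq v4 kit is named in the labels' protocols.

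Columns were matched to samples by title. Counts of the 16878 named transcripts listed in both tables were summed per gene name, and transcripts without a name (0.138 to 0.237% of counts over the 18 libraries) were left out. Library size was the named total of each tissue's own table, 11584418 to 22580824 counts over the IgG libraries. edgeR 4.0.16 was run with TMM, its default low-count filter, robust quasi-likelihood fits of group means and Benjamini-Hochberg adjustment, two-sided at 0.05. The IgG and input tissue differences were fitted on 6 libraries each, and their difference on 12. Alternatives were library size alone, DESeq2 1.42.0, limma-voom 3.58.1, no filter, a replicate block, all transcripts, shared-transcript library sizes, wider fits and leaving out each library. The procedure was run on simulated counts with planted changes, as a check of the code. That run does not measure the rate of false calls in these data. Intervals cover counting error only, and read counts without molecular identifiers are not independent molecules.

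Per the labels, both tissues come from the same animals in each of 3 repeats, so replicate numbers may pair libraries, although no label states that the number is the repeat. The correlation of same-numbered deviations from the group mean was 0.00677, 0.0528 and 0.118 for IgG and 0.335, 0.251 and 0.482 for input.

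Named genes were the 10 with the largest called difference per direction (mean of at least 10 CPM, no overlap), up to 3 called genes per list or else its 2 highest, 7 fixed genes (1 more is not reported here), the 5 highest genes of each table alone, and up to 5 per direction of the difference against input. The comparison, the 29 lists and these genes were chosen with earlier results of these data known. Positions are from GENCODE M21 (GRCm38), which placed 77 of 78 named genes. Exons of 12 named genes overlap another gene on the other strand.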

Additional observations from a re-analysis of the deposited data

Results flagged for a closer look

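For 9 genes the difference between sciatic nerve and dorsal root in the IgG precipitates was itself different from that in the input axoplasm, by the test of the IgG difference minus the input difference over 12 libraries with edgeR's quasi-likelihood test. Positive values mean a larger shift toward sciatic nerve in IgG, and they were 8.16 for Myct1, 5.79 for Cox8b, 5.10 for Nnat, 4.39 for Tusc5, 3.01 for Dnajc15 and 2.37 for Fasn on the log2 scale. Negative values mean a larger shift toward dorsal root in IgG, and they were -9.89 for Cog1, -6.90 for Mmp9 and -6.87 for 1700007L15Rik. Adjusted p-values were 0.028 to 0.039 over the 9 genes. Leaving out any 1 input library removed all 9 calls, as did the replicate block.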

How the results depend on the processing

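The 47 named genes called between the IgG precipitates gave 705 values under the 15 alternatives, of which 534 kept direction and call, 171 kept direction and lost the call, and none changed sign. The count of IgG calls, 121 in the reported fit (83 higher in sciatic nerve and 38 in dorsal root), was 878 with DESeq2 (439 and 439), 652 with the 12 precipitates in 1 fit (326 and 326), 1510 with all 18 libraries (723 and 787), 57 with limma-voom and 51 to 106 with 1 library left out. The replicate block gave 68 IgG calls and 682 input calls against 503. By deviations from the group mean, 2 of 3 dorsal root IgG libraries correlated best with the sciatic nerve IgG library of their own number. Of the 47 named IgG calls, 20 were lost with the block and 27 kept, and among those not given above the adjusted p was 0.0678 for Myct1, 0.0594 for Dnajc15 and 0.122 for 1700007L15Rik. The input count was 1061 with DESeq2, 180 with all 18 libraries and 220 to 2538 with 1 library left out, the highest without sciatic nerve input replicate 3. The 9 calls of the IgG difference minus the input difference became 387 with DESeq2, 56 with all 18 libraries, 1 with limma-voom, 0 with the replicate block and 0 to 123 with 1 library left out. The cause of these shifts was not tested.

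Sign changes occurred in genes that were not called. With library size alone the log2 difference was -0.044 for Sncg and -0.080 for Malat1. With limma-voom it was -0.055 for Malat1, and with the replicate block -0.055 for Malat1 and 0.0076 for Myl9. Myl9 was at 0.015 with the 12 precipitates and 0.0056 with all 18 libraries in 1 fit. Over the fits without 1 library the values ran from -0.012 to 0.44 for Scn7a, -0.19 to 0.090 for Tagln, -0.28 to 0.30 for Myl9, -0.22 to 0.50 for Sncg, -0.11 to 0.38 for Rpl4, -0.38 to 0.21 for Malat1, -0.10 to 1.03 for Snhg11, -0.31 to 0.19 for Hnrnpa2b1 and -0.10 to 0.78 for Ddx3y. In the IgG comparison list medians kept their sign under all 15 alternatives except those of nuclear-retained RNAs (-0.48 to 0.29), other position transcription factors (-0.81 to 0.19) and sex-linked genes (-0.10 to 0.68). Depth limits the genes near 0: dorsal root IgG libraries were the shallower ones, and a count of 0 there allows up to 3 counts over the group.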

Other observations

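Of the 121 genes called between the IgG precipitates of the 2 tissues, 83 were on none of the 29 gene lists, 61 of them higher in sciatic nerve and 22 higher in dorsal root. The genes named in this and the next paragraph were chosen after their values were seen. Cyp2e1, a cytochrome P450 of liver and fat, had 5172, 4072 and 1811 CPM in sciatic nerve IgG and 7.95, 8.06 and 21.1 CPM in dorsal root IgG (log2 difference 8.19 ± 0.68 (SE), adjusted p = 0.00192). Aoc3, the amine oxidase of fat cells and smooth muscle, had 396, 595 and 378 CPM against 13.8, 6.99 and 4.19 CPM (log2 difference 5.74 ± 0.57 (SE), adjusted p = 0.00334). Pnpla3, a lipid droplet acyl hydrolase, had 523, 448 and 253 CPM against 1.14, 0.921 and 0.517 CPM (log2 difference 8.86 ± 0.57 (SE), adjusted p = 0.00135). Retnla, a resistin-like protein of alternatively activated macrophages and fat, had 1037, 794 and 1024 CPM against 21.4, 26.3 and 62.8 CPM (log2 difference 4.67 ± 0.49 (SE), adjusted p = 0.0038). Ifi27l2a, an interferon-induced gene, had 7623, 5886 and 5997 CPM against 103, 97.3 and 278 CPM (log2 difference 5.33 ± 0.51 (SE), adjusted p = 0.00279). All 5 had groups without overlap and were called under the 15 alternatives.

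Slc7a11, the cystine-glutamate exchanger, was called toward dorsal root and had 212, 357 and 227 CPM in dorsal root IgG and 0.195, 0.781 and 1.32 CPM in sciatic nerve IgG (log2 difference -8.45 ± 0.79 (SE), adjusted p = 0.00279). Atp1b1, a sodium pump subunit, had 139, 167 and 209 CPM against 7.73, 8.11 and 6.13 CPM (log2 difference -4.58 ± 0.44 (SE), adjusted p = 0.00279). Car2, a carbonic anhydrase of oligodendrocytes and red cells, had 280.2, 313 and 320.0 CPM against 20.6, 19.5 and 10.7 CPM (log2 difference -4.20 ± 0.40 (SE), adjusted p = 0.00279). Vtn, which encodes the adhesive plasma protein vitronectin, had 269, 350.1 and 247 CPM against 27.2, 31.4 and 22.1 CPM (log2 difference -3.46 ± 0.36 (SE), adjusted p = 0.00336). These 4 were called under the 15 alternatives. Kcna1, a potassium channel of myelinated axons, was the called gene of this direction with the highest level in sciatic nerve IgG, with 1997, 1708 and 1298 CPM against 274, 336 and 574 CPM (log2 difference -2.11 ± 0.37 (SE), adjusted p = 0.0462), and it lost the call without any library except sciatic nerve replicate 3 (0.0723 to 0.178). The median length of the longest annotated transcript was 2213 nucleotides for the genes called higher in sciatic nerve, 3228 for those called higher in dorsal root and 3120 over all genes tested, as a description.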
